A study of Homo sapiens with 8 samples.

Results

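The genes described here are 35 genes of glycolysis and of the hypoxia response, measured in CAL-27 cells, an established human line of head and neck squamous cell carcinoma. They were chosen by name. Of these, 21 belong to glucose uptake, glycolysis and the fate of pyruvate, and 14 to oxygen sensing and its target genes. The array carried 59 probes for them. A probe above background on at least 2 arrays existed for 34 of the 35, so that 34 of the 12654 genes tested and 35 of the 17528 genes named on the array are members. SLC2A3, a high-affinity glucose transporter, had 2 probes, neither above background on any array, and was not tested.

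There were 8 single-colour arrays. Control cells were measured on 3 arrays, cells given enzastaurin at a final concentration of 10 µM on 3, and cells given Go on 2. The dose of Go and what the controls received in place of inhibitor are not in the labels. All groups grew in DMEM with 10% foetal bovine serum and antibiotics and were then kept without serum for 24 h. The treatment lasted a further 24 h, and total RNA was labelled with Cy3. Enzastaurin is a small-molecule inhibitor of protein kinase C, and the series title describes both compounds as inhibitors of that kinase. All cells are of 1 line, and nothing says whether the arrays of a group came from separate cultures, so that a p-value here measures the spread between arrays, which may be technical. No oxygen level is given in the labels, and no group is labelled as hypoxic.

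Glycolysis breaks glucose down to pyruvate in the cytosol, and cancer cells often run it strongly and turn the pyruvate into lactate even where oxygen is present. The hypoxia-inducible factor is a pair of proteins of which the alpha subunit, such as HIF1A, is destroyed while oxygen is present, because the EGLN prolyl hydroxylases mark it for the VHL ubiquitin ligase. When it is stable it enters the nucleus, binds short DNA sites with a core of ACGTG or GCGTG, and raises the transcription of glycolytic enzymes, of carbonic anhydrases, of mitophagy receptors, of collagen-modifying enzymes and of its own inhibitor EGLN3. Its amount is set largely at the protein level, which an RNA array does not measure.

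The promoters of the members show where those core letters lie. RefSeq start sites in GRCh38.p14 gave 50 windows of 250 bases before a start, for 32 of the 35 members. NDRG1, BNIP3L and SLC2A3 were not matched. ACGTG or GCGTG was searched on both strands, the other strand reading as CACGT or CACGC, and a CACGTG counted on each strand. At least 1 match lay in 33 of the 50 windows (66.0%), against 43.2% of all 35116 promoter windows of that length. The windows of the oxygen-sensing genes held a match in 11 of 14 cases (78.6%) and those of the glycolysis genes in 22 of 36 (61.1%). Windows of a gene with several starts overlap in part, so these shares are descriptions, and a match is not a binding site. Below, 3 windows rich in matches and 2 with none are set beside each other, because the genes behind them recur in the comparisons. Each runs 5′ to 3′ on the gene's strand and ends just before the start, with matches in capitals.
LDHA (chr11:18394313-18394562, + strand): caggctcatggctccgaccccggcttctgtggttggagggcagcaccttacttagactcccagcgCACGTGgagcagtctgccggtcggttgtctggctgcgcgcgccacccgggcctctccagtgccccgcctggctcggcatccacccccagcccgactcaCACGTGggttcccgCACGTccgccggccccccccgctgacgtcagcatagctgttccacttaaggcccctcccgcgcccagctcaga
ANKRD37 (chr4:185396591-185396840, + strand): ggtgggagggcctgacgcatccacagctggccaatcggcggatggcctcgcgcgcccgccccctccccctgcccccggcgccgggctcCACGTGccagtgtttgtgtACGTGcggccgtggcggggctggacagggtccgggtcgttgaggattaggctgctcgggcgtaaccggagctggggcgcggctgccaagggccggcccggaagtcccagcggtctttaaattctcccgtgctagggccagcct
BNIP3 (chr10:131981924-131982173, - strand): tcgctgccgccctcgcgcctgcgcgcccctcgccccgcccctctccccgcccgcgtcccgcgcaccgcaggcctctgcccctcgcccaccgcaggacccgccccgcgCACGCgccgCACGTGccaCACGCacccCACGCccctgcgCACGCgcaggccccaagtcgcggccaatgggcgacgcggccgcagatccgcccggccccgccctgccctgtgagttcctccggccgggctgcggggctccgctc
EGLN3 (chr14:33951075-33951324, - strand): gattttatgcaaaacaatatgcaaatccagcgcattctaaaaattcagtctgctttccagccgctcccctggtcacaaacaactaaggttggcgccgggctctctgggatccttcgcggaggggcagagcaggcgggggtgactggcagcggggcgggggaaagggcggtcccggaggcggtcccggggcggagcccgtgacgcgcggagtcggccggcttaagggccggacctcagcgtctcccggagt
P4HA2 (chr5:132227092-132227341, - strand): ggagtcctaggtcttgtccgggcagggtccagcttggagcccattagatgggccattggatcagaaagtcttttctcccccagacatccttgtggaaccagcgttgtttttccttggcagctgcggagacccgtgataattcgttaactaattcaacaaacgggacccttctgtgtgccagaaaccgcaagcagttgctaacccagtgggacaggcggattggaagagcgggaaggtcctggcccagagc
The LDHA window holds 5 matches, all to ACGTG, since each of its pair of CACGTG runs counts on both strands. The ANKRD37 window holds 3 and the BNIP3 window 6. The windows of EGLN3 and P4HA2, which with HIF1A rose most of the members with enzastaurin, hold none. This says only that these letters are not in the 250 bases before those starts.

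Facts of the whole set bear on every result below. Between 52.1% and 57.3% of probes on an array were above background, and the tested genes separated mainly along a first principal component holding 76.7% of the variance. On it the controls lay at -49.7, -41.8 and -21.6, Go 1 at 0.03, Go 2 at 23.2 and the enzastaurin arrays at 28.5 to 31.7, so the controls and the Go arrays each spread widely and the enzastaurin arrays did not. The labels name no slide, and the slides here are sets of arrays inferred from mean spot positions. By these positions control 1, 2 and 3 lay with Go 1 on the same slide, and Go 2 with the enzastaurin arrays on another. Control and enzastaurin share no slide, and the difference between the slides can be estimated only from Go 1 against Go 2. Of the cell type markers, all 13 of squamous keratinocytes were above background on all 8 arrays, whereas 3 of 7 of fibroblasts, 4 of 6 of leukocytes and 2 of 5 of endothelium passed the filter, with COL1A2, COL3A1, PTPRC, PECAM1 and KDR among those that did not. With enzastaurin 3 of the 13 keratinocyte markers rose and 2 fell, and of the others HLA-DRA rose by 1.12 ± 0.137, LUM rose by 0.62 ± 0.0991, CD3E fell by 0.68 ± 0.0995 and VWF fell by 0.21 ± 0.0800. With Go 6 of the 13 keratinocyte markers fell, HLA-DRA rose by 0.50 ± 0.153 and CD3E fell by 0.41 ± 0.111. Over all genes tested, 18.0% rose and 37.0% fell with enzastaurin, and 11.6% rose and 20.1% fell with Go. Set against enzastaurin, SFN was lower with Go by a log2 difference of -0.84 ± 0.0914, LUM by -0.52 ± 0.111 and HLA-DRA by -0.62 ± 0.153. Their part in the results on the members was not tested.

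Values are log2 of quantile-normalised intensity after adding 50. A difference is given on that scale with its standard error from limma's moderated t statistic in 1 fit of all 8 arrays, and adjusted p-values are Benjamini-Hochberg values over all 12654 genes. A gene is said to have risen or fallen where the adjusted p is below 0.05. Adding 50 understates the change of dim genes. The level of a probe is not comparable with that of another probe.

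**Figure D1:**
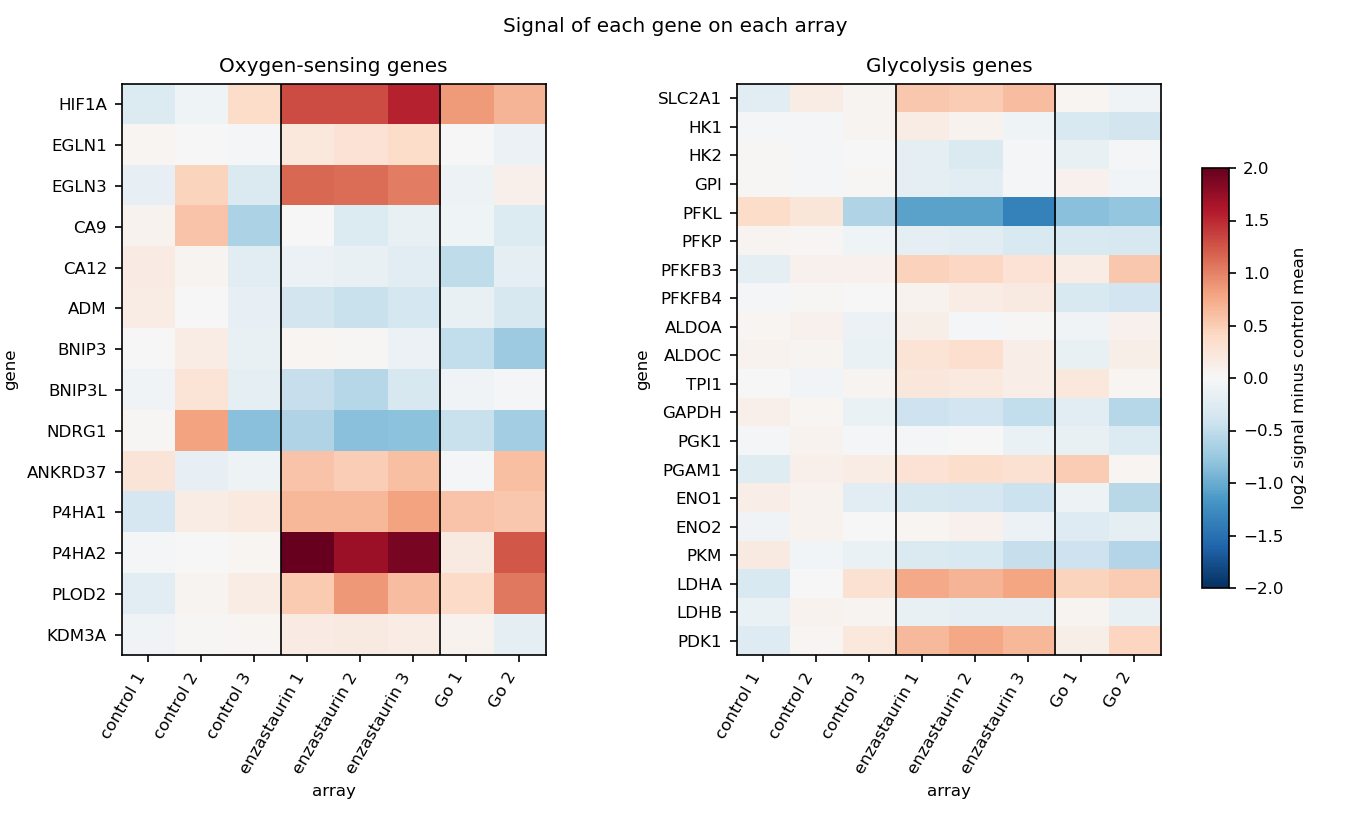
Log2 signal of the 34 tested members (rows) on each of the 8 arrays (columns), as the difference from the mean of the 3 control arrays, with oxygen-sensing genes on the left and glycolysis genes on the right. HIF1A, EGLN3 and P4HA2 are high on all 3 enzastaurin arrays, PFKL is low on all treated arrays, and P4HA2 differs between Go 1 and Go 2.

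The first comparison asks which of these genes changed with enzastaurin. In the oxygen-sensing group, HIF1A, EGLN3, EGLN1 and the collagen-modifying enzymes P4HA1, P4HA2 and PLOD2 rose together with ANKRD37, while ADM and BNIP3L fell. Carbonic anhydrases CA9 and CA12, BNIP3, NDRG1 and KDM3A did not pass the test. That is 7 risen, 2 fallen and 5 not called of 14, with a median difference of 0.22. Over all genes tested 55.0% were called, 18.0% higher and 37.0% lower, with a median of -0.15. Among all 34 members 18 were called (52.9%), close to the share over all genes.

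HIF1A encodes the oxygen-regulated subunit of the factor. Its signal was 9.73, 9.92 and 10.37 in the controls and 11.31, 11.30 and 11.55 with enzastaurin. Every enzastaurin array lay above every control array. The difference was 1.38 ± 0.157 (SE, n = 3 and 3), a 2.61-fold rise with an adjusted p of 0.000367 in limma's test.

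P4HA2 is a catalytic subunit of the prolyl hydroxylase that modifies collagen in the endoplasmic reticulum. It read 10.03, 10.06 and 10.11 in the controls and 12.06, 11.78 and 11.96 with enzastaurin. The difference of 1.87 ± 0.225 (3.66-fold, adjusted p 0.000427 by limma) was the largest of any member in either direction. Its second probe rose by 1.37, so that both probes of the gene moved the same way. P4HA1, the paralogous subunit, rose by 0.70 ± 0.136, and PLOD2, a lysyl hydroxylase that prepares collagen for cross-linking, by 0.67 ± 0.175.

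The hydroxylases that end the HIF response rose as well. EGLN3 stood at 7.70, 8.31 and 7.57 in the controls and at 9.01, 8.97 and 8.88 with enzastaurin. Its rise of 1.10 ± 0.172 had an adjusted p of 0.00112 in limma's test, and the enzastaurin arrays lay close together while the controls were spread. EGLN1, the main hydroxylase of most cells, rose by 0.29 ± 0.0775, and its second probe by 0.60.

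Among the other oxygen-sensing members ANKRD37, an ankyrin-repeat protein known as a HIF target, rose by 0.55 ± 0.165. ADM, the vasodilator peptide adrenomedullin, fell by 0.39 ± 0.0993, and BNIP3L, a receptor that directs mitochondria to autophagy, fell by 0.45 ± 0.124, its second probe by 0.81. The related receptor BNIP3 had a difference of -0.02, with a 95% interval from -0.25 to 0.22. The interval for CA9, a cell-surface carbonic anhydrase much used as a hypoxia marker, ran from -0.71 to 0.42, and that for CA12 from -0.43 to 0.11. KDM3A, a histone demethylase, had a difference of 0.16 with an adjusted p of 0.146, and of its other 2 probes 1 rose by 0.29 and 1 was not called, at 0.16. It was called with its probes averaged and with median scaling.

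NDRG1, a stress-responsive gene, showed how far the controls can differ. Its signal was 11.50, 12.29 and 10.64 in the controls against 10.87, 10.64 and 10.65 with enzastaurin. The groups overlapped, and the difference of -0.76 ± 0.332 had an adjusted p of 0.0789 in limma's test. CA9 spread in the same order over the controls, at 8.21, 8.70 and 7.50. Both differences depended on which control was left out. Without control 3 NDRG1 was called at -1.18 and CA9 at -0.46, whereas without control 2 they stood at -0.35 and 0.14.

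**Figure D2:**
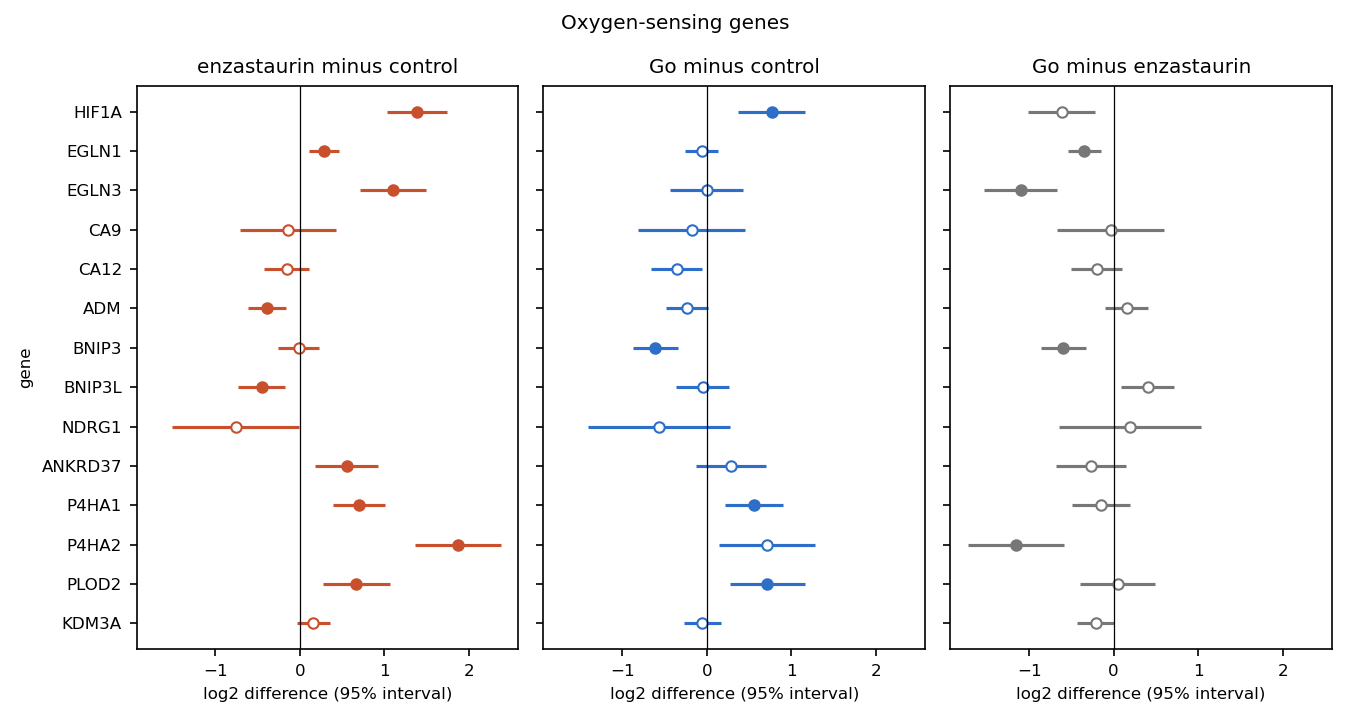
Log2 differences of the 14 oxygen-sensing genes in the 3 comparisons, with 95% intervals from the limma fit. Filled points have an adjusted p below 0.05 over all genes and open points do not. Filled points number 9 for enzastaurin minus control, 4 for Go minus control and 4 for Go minus enzastaurin, the last all below 0.

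Most calls of this list were lost when the slide entered the fit, and its part in the differences was not tested. With the slide as a block, 2 of the 14 were called, and over all genes 485 in place of 6960. HIF1A kept a difference of 1.56 ± 0.316 (adjusted p 0.0398, within 3.8e-05 to 0.0398 over 19 alternatives) and P4HA2 one of 0.80 ± 0.177 (adjusted p 0.0498, within 1.03e-05 to 0.0498). Both were called in every alternative. EGLN3 stood at 0.90 ± 0.346 and P4HA1 at 0.73 ± 0.279 in the block without being called (SE 0.172 and 0.136 without the block). PLOD2 stood at 0.00, and ANKRD37 changed sign to -0.07.

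In the glycolysis group with enzastaurin, 4 genes rose, 5 fell and 11 were not called, with a median of 0.02. Over all genes tested 18.0% rose and 37.0% fell. The 4 that rose are a glucose transporter, a regulator of phosphofructokinase, lactate dehydrogenase A and a kinase that keeps pyruvate out of the mitochondria. The 5 that fell, by the probe that stands for the gene, are the enzymes PFKL, PFKP, GAPDH, ENO1 and PKM. A second PKM probe rose by 0.24, and the second PFKL and ENO1 probes were not called. Scaling arrays by their median in place of quantile normalisation gave 9 risen and 2 fallen glycolysis genes. For the oxygen-sensing genes it gave 8 and 0. That scaling moved the median of all genes from -0.15 to 0.03 and the share of higher among called genes from 32.7% to 56.3%. The direction of PFKP turned with it, to 0.02.

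LDHA, which reduces pyruvate to lactate, read 13.65, 13.96 and 14.26 in the controls and 14.71, 14.63 and 14.74 with enzastaurin. All enzastaurin arrays lay above all controls, of which control 3 was the nearest. The rise was 0.74 ± 0.138 (1.67-fold, adjusted p 0.00245 by limma), and its other 2 probes rose by 1.04 and 1.08. The partner subunit LDHB was not called, at -0.17.

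PDK1, the kinase that switches off pyruvate dehydrogenase, read 8.02, 8.32 and 8.49 in the controls and 8.93, 9.06 and 8.94 with enzastaurin. It rose by 0.70 ± 0.132, with an adjusted p of 0.00253 in limma's test. Its second probe had a difference of 0.17 and was not called.

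At the entry to the pathway, SLC2A1, the widespread glucose transporter GLUT1, read 11.32, 11.68 and 11.58 in the controls and 12.06, 12.04 and 12.15 with enzastaurin. The groups did not overlap, and the rise was 0.55 ± 0.105 (1.47-fold, adjusted p 0.00249 by limma). Hexokinases, which trap glucose as its phosphate, were not called, with HK1 at 0.04 and HK2 at -0.16.

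Genes of the phosphofructokinase step moved in opposite ways. PFKL, the liver-type subunit of the enzyme that commits glucose to glycolysis, read 10.83, 10.71 and 9.87 in the controls and 9.40, 9.40 and 9.12 with enzastaurin. It fell by 1.16 ± 0.222 (2.24-fold lower, adjusted p 0.00260 by limma), the largest fall among the probes that stand for their gene, although its second probe had a difference of -0.15 and was not called. PFKP, the platelet-type subunit, fell by 0.24 ± 0.0780. Its probe was scored above background on 4 of the 8 arrays, although its log2 signal averaged 12.18. PFKFB3, which makes the activator fructose 2,6-bisphosphate, rose by 0.39 ± 0.122, and its other 2 passing probes rose by 1.41 and 0.35. PFKFB4, of the same family, was not called, at 0.13.

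In the lower part of the pathway GAPDH, which oxidises glyceraldehyde phosphate, read 15.09, 15.03 and 14.86 in the controls and 14.58, 14.61 and 14.50 with enzastaurin. Its fall was 0.43 ± 0.107, with an adjusted p of 0.00865 in limma's test. ENO1, an enolase, fell by 0.36 ± 0.133 (adjusted p 0.0440 by limma), and PKM, the pyruvate kinase gene, by 0.35 ± 0.106. ENO1 was called in 8 of 19 alternatives. The second ENO1 probe had a difference of -0.07 and was not called, and the second PKM probe rose by 0.24. GPI, ALDOA, ALDOC, TPI1, PGK1, PGAM1 and ENO2, which fill the steps between, had differences from -0.15 to 0.31 and were not called.

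**Figure D3:**
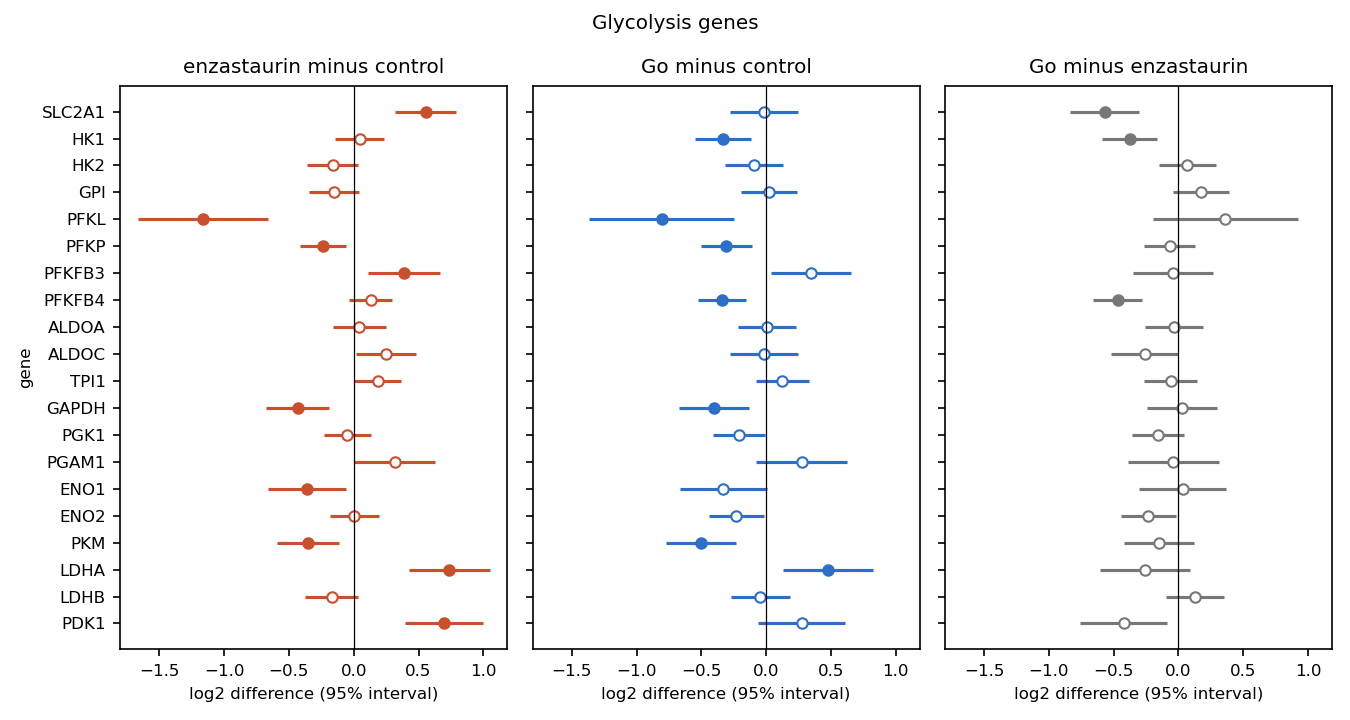
Log2 differences of the 20 tested glycolysis genes in the 3 comparisons, with 95% intervals from the limma fit and genes ordered along the pathway. Filled points have an adjusted p below 0.05 over all genes, which holds for 9, 7 and 3 genes from left to right.

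None of the 20 glycolysis genes was called by limma with the slide as a block, where 5 had an unadjusted p under 0.05. Over all genes 485 were called in that block in place of 6960, and those under the unadjusted threshold were not counted. There, SLC2A1 stood at 0.68 ± 0.205, LDHA at 0.67 ± 0.282, PDK1 at 0.38 ± 0.237 and PFKL at -1.22 ± 0.460. GAPDH shrank to -0.09 and PFKFB3 to 0.00, and ENO1 changed sign to 0.09. Leaving out control 1 left 5 of the 9 called, and 5720 of all genes in place of 6960.

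Probes of the same gene did not always agree. More than 1 probe passed the filter for 14 members, and a fit over all passing probes, added after the data were seen, tested each. With enzastaurin all probes of BNIP3L, EGLN1, LDHA, P4HA2 and PFKFB3 were called in 1 direction. For PKM the probes were called in opposite directions, at -0.35 and 0.24. The second ALDOA probe fell by 1.56 where the first had a difference of 0.04, and 1 of the other 2 PGK1 probes rose by 1.005 where the probe that stood for the gene had a difference of -0.05. The transcripts behind these probes were not compared.

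**Figure D4:**
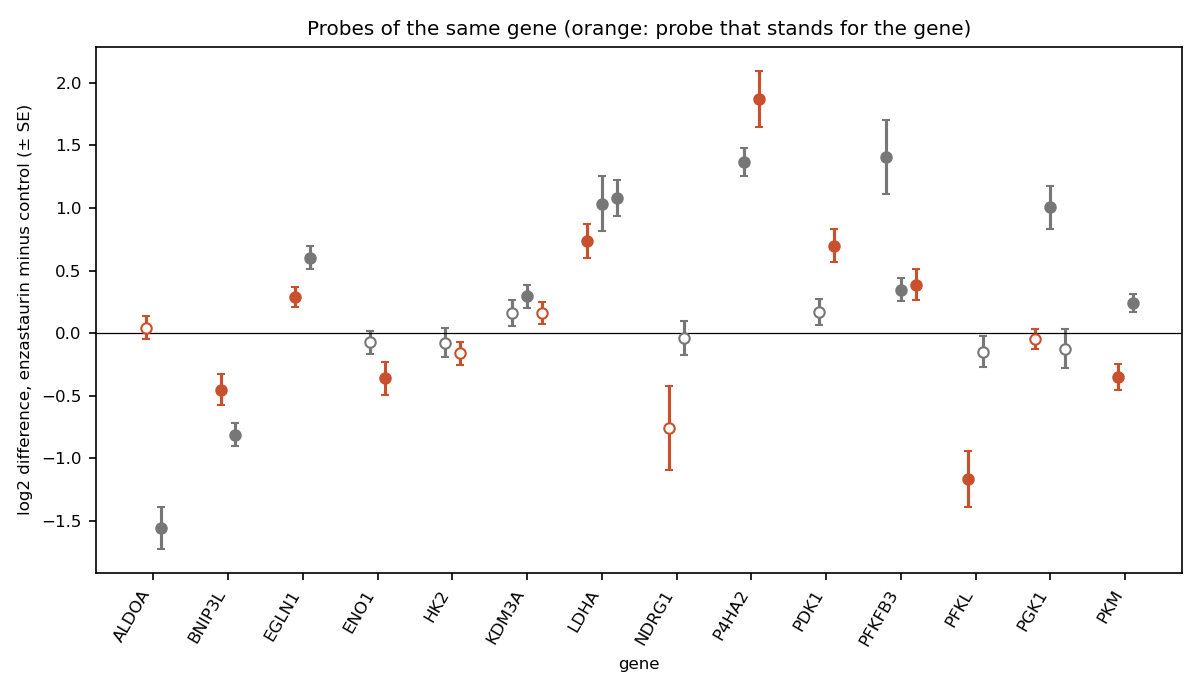
Log2 difference between enzastaurin and control for every passing probe of the 14 members with more than 1, with standard errors from the fit over probes. Orange marks the probe that stands for the gene, and filled points have an adjusted p below 0.05. ALDOA, PGK1, PKM and PFKL have probes that lie apart, and the LDHA probes lie together between 0.74 and 1.08.

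The second comparison asks the same of Go, with 2 arrays. HIF1A, the collagen enzymes P4HA1 and PLOD2, and LDHA rose. PFKL, PKM, GAPDH, PFKFB4, HK1, PFKP and BNIP3 fell. In the oxygen-sensing group 3 rose, 1 fell and 10 were not called, with a median of -0.05. In the glycolysis group 1 rose, 6 fell and 13 were not called, with a median of -0.07. Over all genes 31.7% were called, 11.6% higher and 20.1% lower, with a median of -0.11, and among the 34 members 11 were called (32.4%), close to that share. Scaling by the array median gave 2 risen and 1 fallen in the glycolysis group and left 3 and 1 in the oxygen-sensing group, while the share of higher among all called genes went from 36.7% to 59.4%.

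HIF1A read 10.86 and 10.69 with Go, above the 3 controls and below the 3 enzastaurin arrays. The difference from control was 0.77 ± 0.176 (n = 2 and 3), a 1.70-fold rise with an adjusted p of 0.0164 in limma's test. P4HA1 read 7.90 and 7.88 and rose by 0.56 ± 0.152. PLOD2 read 9.30 and 9.96 and rose by 0.72 ± 0.196.

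P4HA2 showed the largest gap between the Go arrays of any member. Go 1 read 10.24 and Go 2 read 11.31, against 10.03 to 10.11 in the controls. The difference of 0.71 ± 0.252 had an adjusted p of 0.0573 in limma's test and was not called. It was 1.25 without Go 1, where it was called, and 0.17 without Go 2, where it was not. Go 1 shared its slide with the controls and Go 2 with the enzastaurin arrays, and what part the slide has in the gap was not tested.

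BNIP3 read 11.28 and 11.04 with Go against 11.77, 11.92 and 11.61 in the controls. Both Go arrays lay below every control, and the fall was 0.61 ± 0.118 with an adjusted p of 0.0109 in limma's test. BNIP3L, of the same family, had a difference of -0.05 and was not called. EGLN3 read 7.76 and 7.96, within the range of the controls, with a difference of 0.00 and a 95% interval from -0.44 to 0.43.

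Among glycolysis genes with Go, LDHA read 14.40 and 14.47 and rose by 0.48 ± 0.155. PFKL read 9.63 and 9.69 and fell by 0.80 ± 0.248, and PKM read 12.58 and 12.40 and fell by 0.50 ± 0.119. For PFKL and PKM this holds for the probe that stands for the gene, since their second probes had differences of -0.27 and -0.03 and were not called. Of the other LDHA probes 1 rose, by 0.58, and 1 was not called, at 0.39. PFKFB4 read 6.92 and 6.84 against 7.18, 7.24 and 7.22 in the controls and fell by 0.34 ± 0.0825, and HK1 fell by 0.33 ± 0.0948. GAPDH fell by 0.40 ± 0.120 and PFKP by 0.31 ± 0.0872. SLC2A1 had a difference of -0.02, with a 95% interval from -0.28 to 0.25. Among the 14 members with several passing probes, 0 had all of them called by limma with Go and 6 had some called. The second ALDOA probe fell by 1.15 and 1 of the PGK1 probes rose by 0.90, where the probes that stand for these genes had differences of 0.01 and -0.21 and were not called. A PFKFB3 probe rose by 1.14, where the probe that stands for the gene had a difference of 0.35 and was not called.

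None of these calls stood without Go 2, which is also the comparison within the first slide, nor in a fit of only the 2 groups. The fit of only the 2 groups called 238 of the 12654 genes. In it 12 members had an unadjusted p under 0.05 in limma's test, a threshold not counted over all genes. With Go 2 left out, HIF1A stood at 0.86 ± 0.223 (adjusted p 0.0590, within 0.00132 to 0.0867 over 19 alternatives), BNIP3 at -0.49 ± 0.134 and PLOD2 at 0.38 ± 0.171. The sign of all 11 called members held in every alternative. Without control 2, 0 glycolysis genes and 1 oxygen-sensing gene were called, and without control 1, 2 glycolysis genes. Without control 3, 8 oxygen-sensing genes were called in place of 4. Over all genes 1810, 1019 and 5368 were called without control 1, 2 and 3, in place of 4015. The glycolysis count was 3, 2 and 4 without enzastaurin 1, 2 and 3, arrays that enter this comparison only through the shared estimate of the spread. The count over all genes was then 2607, 2622 and 2884.

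The third comparison sets Go against enzastaurin directly. Lower with Go were 7 members, namely P4HA2, EGLN3, BNIP3, SLC2A1, PFKFB4, HK1 and EGLN1. By limma's adjusted p 0 were higher, and at an unadjusted p under 0.05 it was 1, BNIP3L, at 0.40 with an adjusted p of 0.111. That rests on the probe chosen for BNIP3L, since its second probe was higher with Go by 0.66 (adjusted p 0.00988 in limma's fit over probes), and with its probes averaged BNIP3L was called higher, at 0.53. Over all genes 7.67% were called, 4.65% higher and 3.03% lower with Go, with a median of 0.04, and 7 of the 34 members were called (20.6%). By group that is 4 of 14 oxygen-sensing genes, with a median of -0.21, and 3 of 20 glycolysis genes, with a median of -0.06. Scaling by the array median gave 5 and 3, all lower, where the share of higher among all called genes went from 60.6% to 37.0%.

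EGLN3 was 1.10 ± 0.192 lower with Go (2.14-fold, adjusted p 0.0126 by limma), with the Go arrays at 7.76 and 7.96 and the enzastaurin arrays at 8.88 to 9.01. P4HA2 was 1.16 ± 0.252 lower (2.23-fold, adjusted p 0.0276 by limma), and its second probe 1.12 lower. EGLN1, the other hydroxylase, was lower by a log2 difference of -0.35 ± 0.0867 (adjusted p 0.0447 by limma). In the fit over probes neither of its probes was called.

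BNIP3 read 11.81, 11.79 and 11.65 with enzastaurin, within the range of the controls, and was lower with Go by a log2 difference of -0.59 ± 0.118 (adjusted p 0.0201 by limma). SLC2A1 was lower by -0.57 ± 0.117, with Go at 11.57 and 11.45 and enzastaurin at 12.04 to 12.15. PFKFB4 read 7.28, 7.36 and 7.39 with enzastaurin and was lower with Go by -0.47 ± 0.0825 (adjusted p 0.0128 by limma). HK1, the hexokinase of most tissues, was lower by -0.38 ± 0.0948 (adjusted p 0.0453 by limma). Its probe was not called in the fit over probes (adjusted p 0.0515 by limma). HIF1A itself was at -0.61 ± 0.176, with an adjusted p of 0.0656, and was not called, although no Go array reached an enzastaurin array.

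With the slide as a block, this pair compares Go 2, a single array, with the enzastaurin arrays of its own slide. EGLN3 stood at -0.9997 ± 0.245, P4HA2 at -0.62 ± 0.125, BNIP3 at -0.72 ± 0.134, SLC2A1 at -0.63 ± 0.145 and PFKFB4 at -0.51 ± 0.0976. HK1 stood at -0.41 and EGLN1 at -0.40. All 7 members called in this comparison kept their sign in every alternative, with P4HA2 ranging from -1.70 to -0.62. The calls were lost more easily than the signs. Over all genes 260, 220 and 360 were called without enzastaurin 1, 2 and 3, in place of 971. Without enzastaurin 1, 1 glycolysis gene and 0 oxygen-sensing genes were called, without enzastaurin 2, 0 and 0, and without enzastaurin 3, 0 and 1. In these fits 4 and 6, 3 and 5, and 7 and 6 had an unadjusted p under 0.05 in limma's test, a threshold not counted over all genes. Without Go 2 the counts were 1 and 2, and without control 2 the oxygen-sensing count was 2.

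**Figure D5:**
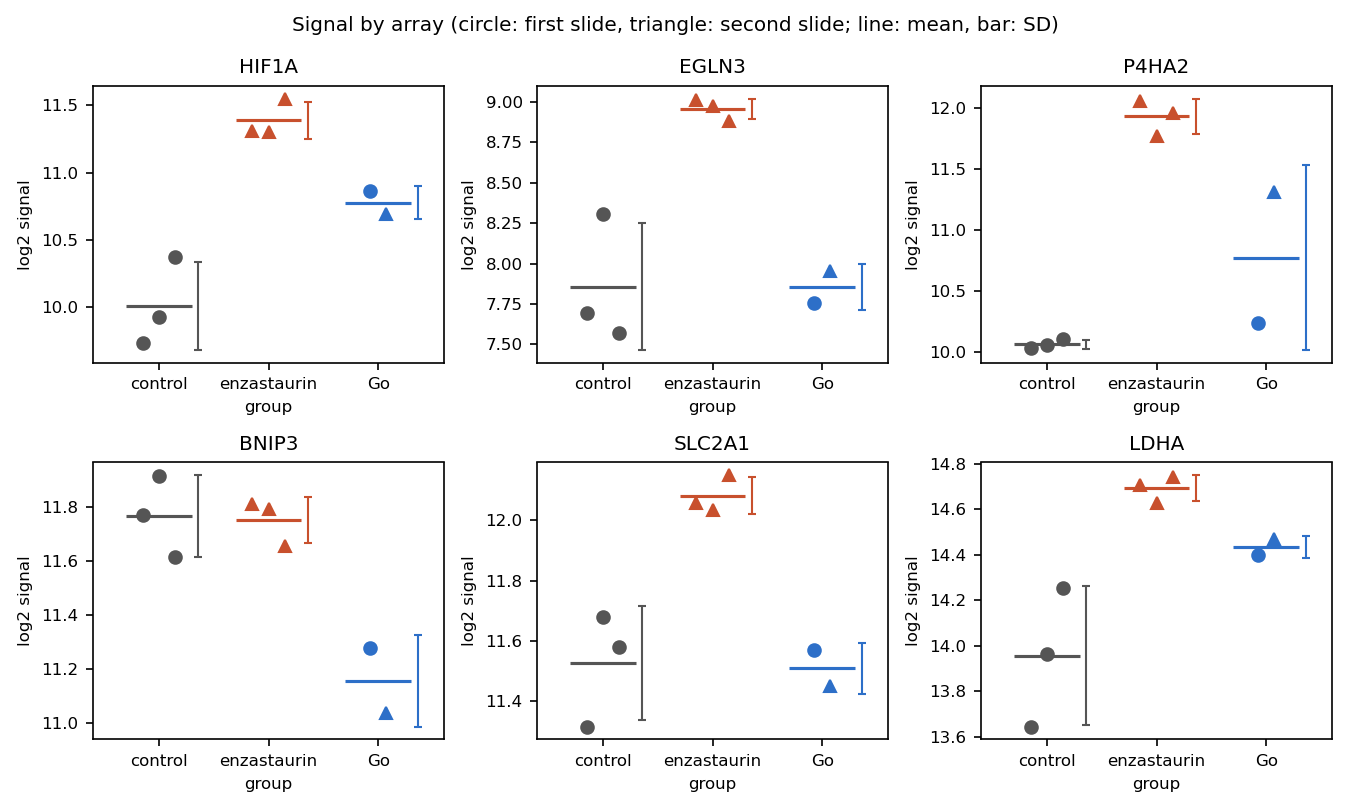
Log2 signal of 6 members on each array by group, with circles for the first slide and triangles for the second, lines for group means and bars for the SD. Vertical axes do not start at 0 and differ between panels. HIF1A lies between the groups with Go, EGLN3, BNIP3 and SLC2A1 are lower with Go than with enzastaurin, and P4HA2 splits between the Go arrays.

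Genes around these pathways that are not members were taken from lists. Their counts are to be read beside the shares over all genes tested. These were 18.0% risen and 37.0% fallen with enzastaurin, and 11.6% risen and 20.1% fallen with Go. Between Go and enzastaurin, 4.65% were higher and 3.03% lower with Go. No list was tested as a set. Among other regulators of the factor, 7 of 17 tested rose and 5 fell with enzastaurin, with a median of 0.23. EGLN2, the third of the prolyl hydroxylases, rose by 0.98 ± 0.0985, SIAH2, a ubiquitin ligase acting on the EGLN proteins, fell by 0.47 ± 0.143 but stood at 0.16 in the slide block, and HIF1AN, the asparagine hydroxylase that blocks the factor's activity, fell by 0.31 ± 0.0990. VHL, the ubiquitin ligase subunit, rose by 0.93 ± 0.214 on a probe annotated to a transcript outside RefSeq, while its RefSeq probe rose by 0.26. HIF3A had the lowest difference of this list with enzastaurin, at -0.80, on a probe not above background on all arrays of any group. Its second probe fell by 0.81. With Go 3 rose and 3 fell. EPAS1, the second oxygen-regulated subunit, fell by 0.69 ± 0.0925 and stood at -0.79 in the slide block, where it was called, while its second probe had a difference of -0.18 and was not called. CUL2, the scaffold of the VHL ligase, rose by 0.62 ± 0.201.

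Among 25 other tested HIF targets 5 rose and 4 fell with enzastaurin, with a median of -0.08. BHLHE40, a transcriptional repressor, rose by 1.23 ± 0.100 and stood at 1.23 in the slide block, where it was called. FAM162A, a mitochondrial protein, rose by 0.75 ± 0.0828. MXI1, an antagonist of MYC, and the transporter SLC2A10 were not above background on any enzastaurin array. Their differences were -0.57 ± 0.0910 and -0.53 ± 0.0973, with adjusted p of 0.00119 and 0.00217 in limma's test. With Go 5 rose and 4 fell, with FAM162A at 0.56 ± 0.0926. Set against enzastaurin, Go gave 2 higher and 2 lower. BHLHE40 was lower by a log2 difference of -0.81 ± 0.112 and INSIG2, which retains sterol sensors, by -0.68 ± 0.127. STC2, a secreted glycoprotein, was 0.75 ± 0.131 higher. The second probes of INSIG2 and STC2 had differences of -0.28 and 0.06 and were not called.

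Other glycolysis genes, mostly further isoforms and lactate or glucose carriers, gave 0 risen by limma's adjusted p (1 at an unadjusted p under 0.05) and 5 fallen of 11 tested with enzastaurin, with a median of -0.30. PFKM, the muscle-type phosphofructokinase, fell by 0.68 ± 0.100 and SLC16A1, the lactate carrier MCT1, by 0.67 ± 0.0939. The count with Go was also 0 and 5, adjusted or not. Over all genes tested, 37.0% fell with enzastaurin and 20.1% with Go. TIGAR, a bisphosphatase that lowers glycolytic flux, fell by 0.50 ± 0.122. The pentose phosphate pathway, which branches off after hexokinase, had 1 risen and 5 fallen of 8 with enzastaurin. RPIA, the ribose isomerase, fell by 0.64 ± 0.0745 and TKT, transketolase, by 0.43 ± 0.0896.

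At the passage of pyruvate into mitochondria 4 of 13 rose and 3 fell with enzastaurin, with a median of -0.08. MPC1, a subunit of the mitochondrial pyruvate carrier, rose by 0.88 ± 0.0992, and DLD, a subunit of pyruvate dehydrogenase, by 0.80 ± 0.121. PDK4, a relative of PDK1, fell by 0.51 ± 0.0842, and PC, pyruvate carboxylase, by 0.45 ± 0.114. With Go, MPC1 rose by 0.68 ± 0.111 and PDK4 fell by 0.51 ± 0.0941, both called in the slide block. The tricarboxylic acid cycle had 5 risen and 7 fallen of 16 with enzastaurin, with SUCLG1 at 0.92 ± 0.269, CS at 0.59 ± 0.107, SDHD at -0.84 ± 0.176 and SDHB at -0.79 ± 0.160. The last pair, subunits of succinate dehydrogenase, stood at -0.07 and -0.07 in the slide block. Of the other 3 SDHD probes 2 fell, by 0.59 and 0.66, and the third rose by 1.35. With Go 1 rose and 7 fell. Of the genes of these lists named for enzastaurin, BHLHE40, PDK4 and RPIA were called in the slide block.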

How the data were processed

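The authors deposited scanner tables of 8 single-colour arrays and a table of values per sample. Per the file headers the scanner tables are GenePix output with foreground and background intensity, a signal-to-noise score, the percent of saturated pixels and other columns such as spot position. The deposited value table holds, by comparison with the scanner tables, background-subtracted linear intensity with a floor of 0.5 and no normalisation between arrays (medians 38 to 56). Its processing is not given in the sources used here. Annotation in the scanner tables runs in reverse order to the spots on all 8 arrays: across probes, the rank correlation with the value table was 0.0031 to 0.0089 as deposited and 0.9906 to 0.9935 reversed. The value table is keyed by probe, so member signals do not depend on this, while the signal-to-noise filter and the scanner-signal alternative do.

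From the value table, 50 was added, log2 taken and arrays quantile normalised. Of 41000 probes 26828 were named (23860 by accession, 2007 by current and 961 by older symbol), with the RefSeq table of GRCh38.p14 used for names and promoter windows. Probes with a signal-to-noise score above 3 on at least 2 arrays were kept, and each gene was represented by its probe of highest mean signal. No member probe had saturated pixels. limma 3.58.1 in R 4.3.3 fitted the 3 groups on all 8 arrays (residual degrees of freedom 5, prior 4.01). The number of arrays limits the precision, since intensity carries no counts. The procedure was run on simulated data as a check, whose outcome is not given here, and no result rests on it. Slides were inferred from mean spot positions (10930.1 to 10951 µm and 10897.1 to 10904.5 µm). Each of 19 alternatives changed one choice. All 34 tested members are accounted for. Of the other lists, up to 2 risen and 2 fallen genes per comparison, largest first, could be named. The members and lists were chosen with earlier results of these data known.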

Additional observations from a re-analysis of the deposited data

How the results depend on the processing

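Over 19 alternatives, 15 of the 18 members called between enzastaurin and control kept their sign, as did all 11 between Go and control and all 7 between Go and enzastaurin. Called in every alternative were 2 (HIF1A and P4HA2), 0 and 0 of them, and called whichever array was left out were 11, 0 and 0. Of the members not called, 9 of 16, 13 of 23 and 11 of 27 changed sign in at least 1 alternative. Sign changes in which the value was called before or after the change were, for enzastaurin minus control, PFKP at 0.024 with median scaling, ENO1 at 0.087 and ANKRD37 at -0.068 with the slide block, and ALDOA at -0.76 and PGK1 at 0.28 when the probes of a gene were averaged, and for Go minus control ALDOA at -0.57 on that average. The cause was not tested. Counts moved over 1.5 times as follows, given as all genes, glycolysis members and oxygen-sensing members. With the slide as a block, enzastaurin minus control gave 485, 0 and 2 in place of 6960, 9 and 9, and Go minus control 838, 0 and 0 in place of 4015, 7 and 4. A fit of only the 2 groups gave Go minus control 238, 0 and 0, with 3 residual degrees of freedom in place of 5. Median scaling gave Go minus control 3 glycolysis members.

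Leaving out 1 array gave 5296 to 7629, 5 to 11 and 7 to 11 for enzastaurin minus control, 838 to 5368, 0 to 8 and 0 to 8 for Go minus control, and 220 to 1670, 0 to 3 and 0 to 5 for Go minus enzastaurin, in place of 971, 3 and 4. Over all genes, Go minus control moved without control 1 (1810), control 2 (1019), enzastaurin 1 (2607), enzastaurin 2 (2622) and Go 2 (838), and Go minus enzastaurin without control 2 (538), control 3 (1474), enzastaurin 1, 2 and 3 (260, 220 and 360) and Go 2 (1670). A lone Go array was assumed to vary like the other groups. Control and enzastaurin arrays of the same number deviated together with r of 0.084, 0.023 and 0.172, across genes, which are not independent replicates, so the numbers were not taken as pairs. With the replicate block, Go minus enzastaurin gave 543, 1 and 2, and enzastaurin minus control 6903 genes. Signal over background limits SLC2A3, which has no value here. PFKP passed the signal-to-noise score on 4 arrays only, although its deposited values were 3810 to 6030 and so not dim.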
